A study of Mus musculus with 9 samples.

Results

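The 7 mouse genes of the fatty acid elongase family, Elovl1 to Elovl7, were followed across 9 right ventricle arrays. They were taken by gene symbol from the deposited annotation, out of 22061 genes tested, and each of the 7 had 1 probe set. Elovl7 had been picked with its difference between genotypes known, so its levels against wild type are given as a description with no test. The other 6 were added because they belong to the same family.

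The right ventricle of male mice was cut from the heart along the septum, and RNA from each sample was hybridised to 1 Affymetrix array. The 3 groups held 3 arrays each. One was wild type fed enough vitamin A (the sufficient diet), another was Lrat-/- fed likewise, and the last was Lrat-/- fed pellets lacking it (the deficient diet). Both diets were custom pellets fed for 50 days, and the sufficient one was the deficient one with 250000 U/kg of retinol palmitate added. There was no wild-type group on the deficient diet, so diet can be compared only within Lrat-/-. The labels give no strain or age and do not say whether each array was a separate animal, so a p-value reflects array-to-array variation that may hold a technical share.

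Elongases sit in the membrane of the endoplasmic reticulum and catalyse the first, rate-limiting condensation of the cycle that lengthens fatty acids with carbon from malonyl-CoA. Elovl1, Elovl3, Elovl6 and Elovl7 act mainly on saturated and monounsaturated chains, Elovl2 and Elovl5 on polyunsaturated chains, and Elovl4 makes the longest chains of retina, skin and brain. The lengthened acids enter phospholipids, triglycerides and the ceramides of sphingolipids. Lrat encodes lecithin-retinol acyltransferase, which esterifies retinol for storage, so loss of Lrat together with a diet free of added vitamin A is a way to deplete retinoid.

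The sequence around the start of Elovl7 is shown because Elovl7 is the family member whose signal separated the genotypes. It comes from RefSeq, build GRCm38.p6, at chr13:108214154-108214453 on the plus strand, and covers 250 bases before to 50 bases after an annotated start. Capitals mark the GC box GGGCGG, searched on both strands.

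Elovl7: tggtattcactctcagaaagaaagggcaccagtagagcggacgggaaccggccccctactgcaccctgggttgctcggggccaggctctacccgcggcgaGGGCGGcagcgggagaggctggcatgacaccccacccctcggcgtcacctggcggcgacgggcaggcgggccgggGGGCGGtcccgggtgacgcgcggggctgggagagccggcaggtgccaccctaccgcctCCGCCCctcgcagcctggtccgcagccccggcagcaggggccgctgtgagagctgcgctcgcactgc

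The window was 74% G and C, against a median of 52.7% over 32851 windows of the same length. It held 3 GC boxes, which did not overlap one another, and 35.7% of all windows held at least 1. It held no AGGTCA, the half-site bound by retinoic acid and retinoid X receptors, which 16.3% of windows held on either strand. It also held no CCAAT (37.4% of windows) and no TATAAA (13.6%). A RefSeq window was found for 6 of the 7 elongases, all but Elovl3, and Elovl1 and Elovl2 had 2 windows each. AGGTCA was in 1 or more of those of Elovl1 and Elovl6, GGGCGG in those of Elovl1, Elovl2, Elovl4 and Elovl7, and CCAAT in those of Elovl1, Elovl4 and Elovl5. A match or its absence describes the letters of this window only.

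Levels are given as log2 signal from the authors' RMA step, a method that corrects background, equalises the distribution of signal between arrays and summarises the probes of a set. The median log2 signal of all genes lay between 7.16 and 7.21 in the 9 arrays, and r between any pair of arrays was 0.987 to 0.998. The arrays numbered 3 in the labels stood apart from the others of their group on the first principal component, which held 28.4% of the variance. As a reference for no signal, the 5222 negative control probe sets of the array averaged between 5.37 and 5.71 in each array. These controls are spread widely, with SDs from 1.62 to 1.72, so a signal near their mean cannot be told from background. The number of arrays limits the precision. All 10 cardiomyocyte markers, among them Myh6, Myl2 and Tnnt2, were above the mean of the negative controls in every array, with a mean log2 signal of 13.62 to 13.75.

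The targeted gene went against its labels. Lrat log2 signal was 6.35, 6.24 and 6.43 in wild-type arrays 1 to 3, 7.88, 7.64 and 8.09 in the sufficient arrays labelled Lrat-/-, and 7.58, 7.69 and 7.81 in the deficient ones. All 6 were higher than all 3 wild-type arrays. Where the probe set lies relative to the deleted part of the gene is not known here, so the groups are named by their labels and every direction between genotypes rests on them.

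Elovl7 (probe set 10407072) was above the mean of the negative controls in wild-type right ventricle and not above it in either group labelled Lrat-/-. Its log2 signal was 6.92, 7.35 and 7.48 in the wild-type arrays. It was 5.62, 5.39 and 5.54 in the sufficient arrays labelled Lrat-/-, and 5.53, 5.44 and 5.48 in the deficient ones. The groups labelled Lrat-/- did not overlap with wild type: the highest of those 6 arrays lay below the lowest of the 3 wild-type arrays.

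The mean log2 signal of Elovl7 was 7.25 ± 0.29 in wild type (SD, n = 3), 5.52 ± 0.12 in the sufficient and 5.48 ± 0.05 in the deficient group labelled Lrat-/-. Elovl7 thus differed from wild type by -1.73 and -1.77 on the log2 scale, measured folds of 3.32 and 3.40. Both comparisons use the same 3 wild-type arrays. All 6 arrays labelled Lrat-/- were below the mean of their own negative controls, by 0.08 to 0.23, while the wild-type arrays were above theirs by 1.32 to 1.98. With the signal of each array labelled Lrat-/- raised to that background level, wild-type Elovl7 was at least 2.98-fold higher than in the sufficient and at least 2.95-fold higher than in the deficient group. In the authors' deposited table, whose model also held scan date, Elovl7 had a ratio to wild type of 0.292 with sufficient and 0.255 with deficient feeding. Both are farther from wild type than the folds measured here.

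Set against single control probe sets, wild-type Elovl7 exceeded 80.4% to 90.0% of them, and Elovl7 in arrays labelled Lrat-/- exceeded 45.7% to 49.4%. The wild-type level was thus above most controls and below the brightest of them. Wild-type array 1 stood 1.32 above its control mean, less than the SD of those controls, 1.67. Arrays 2 and 3 stood 1.98 and 1.78 above theirs, not far over the SDs of 1.62 and 1.72. Even in wild type, Elovl7 was thus not widely apart from background. Within the pairs of arrays that share a number, the sufficient array labelled Lrat-/- lay below the wild-type array by log2 differences of -1.30, -1.96 and -1.93, and the deficient array by -1.39 for number 1 and -1.91 for number 2, with number 3 the farthest below. Leaving out the arrays numbered 3 gave -1.63 and -1.65. Wild-type array 1 had the lowest wild-type signal, and without it the differences were -1.89 and -1.93.

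**Figure D1:**
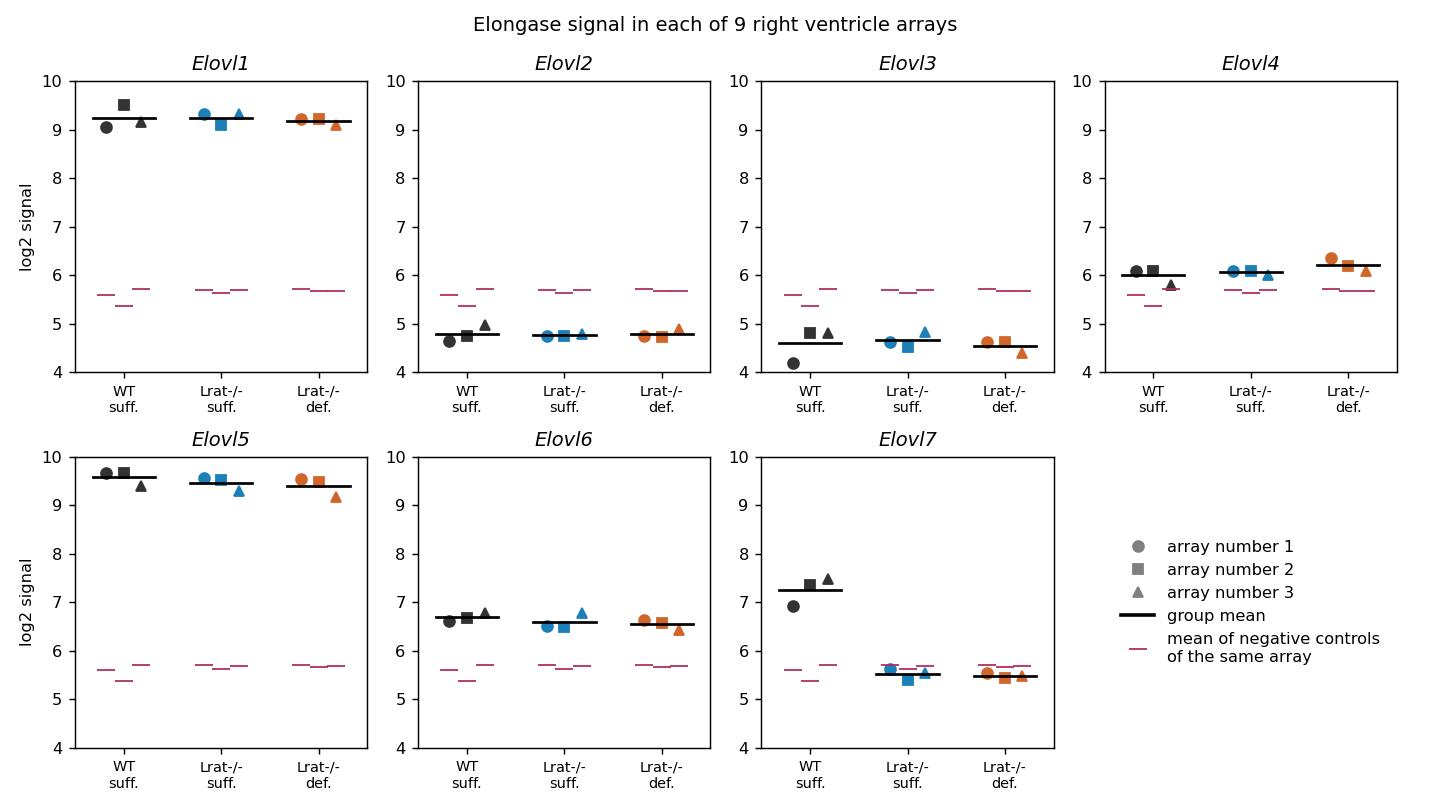
Log2 signal (vertical axis) of the 7 elongases in each of the 9 arrays, grouped as wild type on the sufficient diet (WT suff.), sufficient (suff.) and deficient (def.) arrays labelled Lrat-/-, with the group mean as a black line and the mean of the negative controls of the same array as a short red line. Elovl7 lies between 6.92 and 7.48 in wild type and between 5.39 and 5.62 in the other 6 arrays, where it is not above the control mean.

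Elovl1 (probe set 10507539), the elongase that extends saturated and monounsaturated chains to the lengths found in sphingolipids, was clearly detected, with group means closer together than the spread between arrays. Its log2 signal was 9.05, 9.51 and 9.16 in wild type, 9.32, 9.09 and 9.32 with sufficient feeding and 9.21, 9.21 and 9.10 on the deficient diet. Those ranges overlapped in every comparison, and all 9 arrays exceeded at least 97.1% of the negative controls. Between the sufficient groups the log2 difference was 0.01 (SE 0.12, 95% interval -0.27 to 0.28, limma adjusted p = 0.998). For the deficient group it was -0.07 against wild type (95% interval -0.34 to 0.21).

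Elovl6 (probe set 10495993), which lengthens palmitate to stearate after fatty acid synthase has finished, gave a weak signal that also overlapped. Its log2 signal was 6.62, 6.67 and 6.78 in wild type, 6.51, 6.49 and 6.78 with sufficient feeding and 6.64, 6.58 and 6.43 on the deficient diet. Each array stood 0.75 to 1.30 above its mean negative control, less than the SD of those controls, and exceeded 69.5% to 80.9% of them. Its level was thus above most controls but not clearly apart from background. The log2 difference from wild type was -0.10 on the sufficient diet (SE 0.10, 95% interval -0.32 to 0.13, limma adjusted p = 0.948) and -0.14 on the deficient diet (95% interval -0.36 to 0.09, limma adjusted p = 0.951).

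Elovl3 (probe set 10463551), an elongase of brown fat, skin and liver, was below the mean of the negative controls in all 9 arrays. Its log2 signals ran from 4.18 to 4.80 in wild type, from 4.52 to 4.83 with sufficient feeding and from 4.40 to 4.62 on the deficient diet. No level or fold can be read from it. Ucp1, Cidea and the other brown fat markers of the list had mean log2 signals of 7.12 to 7.38 in wild type, 7.14 to 7.44 with sufficient feeding and 7.12 to 7.32 on the deficient diet, means that include Elovl3 itself. Of the 6 genes, 3 were above the control mean in every array and 5 in at least 1. Elovl3 was the sixth.

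Elovl5 (probe set 10587284), which elongates the polyunsaturated chains made by the desaturases, was clearly detected, with all 9 arrays above at least 97.3% of the negative controls. Its log2 signal was 9.67, 9.67 and 9.40 in wild type, 9.56, 9.52 and 9.29 with sufficient feeding and 9.54, 9.48 and 9.16 on the deficient diet. The groups overlapped, and the array numbered 3 was the lowest of each group. Among arrays of one number, wild type was the highest and the deficient array the lowest in all 3 numbers, an order shown by 0.694% of all genes and noticed after the values were seen. The log2 difference from wild type was -0.12 on the sufficient diet (SE 0.13, 95% interval -0.40 to 0.16, limma adjusted p = 0.948) and -0.18 on the deficient diet (SE 0.13, 95% interval -0.47 to 0.10, limma adjusted p = 0.937).

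With the array number as a block, the SE for Elovl5 fell to 0.07 and the deficient difference had an unadjusted p of 0.0231 in limma, with an adjusted p of 0.471, so it did not pass. In the authors' deposited table, whose model also held scan date, the Elovl5 ratio was 0.903 (p = 0.00737) with sufficient and 0.855 (p = 0.00116) with deficient feeding. The false discovery rate given there for the group effect was 0.543.

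Elovl2 (probe set 10408838), the other polyunsaturated elongase, which acts on the longer chains on the way to docosahexaenoic acid, was below the control mean in all 9 arrays. Its log2 signals ran from 4.65 to 4.98 in wild type, from 4.75 to 4.79 with sufficient feeding and from 4.73 to 4.88 on the deficient diet. Like Elovl3 it had no readable level in this tissue on this array.

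Elovl4 (probe set 10595392), the elongase of the longest chains, lay just above the control mean in every array, by 0.09 to 0.72. It exceeded 54.2% to 69.1% of the single negative controls, so its level cannot be told well from background. Its log2 signal was 6.09, 6.09 and 5.79 in wild type, 6.09, 6.09 and 6.01 with sufficient feeding and 6.36, 6.18 and 6.09 on the deficient diet. The value was exactly the same in 5 of the 9 arrays. The deficient array was the highest among the arrays of each number, an order whose share over all genes was not counted. The groups touched without separating. Its log2 difference was 0.22 for deficient against wild type (SE 0.10, 95% interval -0.01 to 0.45, limma adjusted p = 0.837; with the array number as a block, unadjusted p = 0.0224 and adjusted p = 0.471) and 0.07 for sufficient against wild type (limma adjusted p = 0.954). The authors' deposited table gave a ratio of 1.27 for deficient against wild type, above the fold of 1.16 measured here, with p = 0.0174 and a false discovery rate of 0.787.

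**Figure D2:**
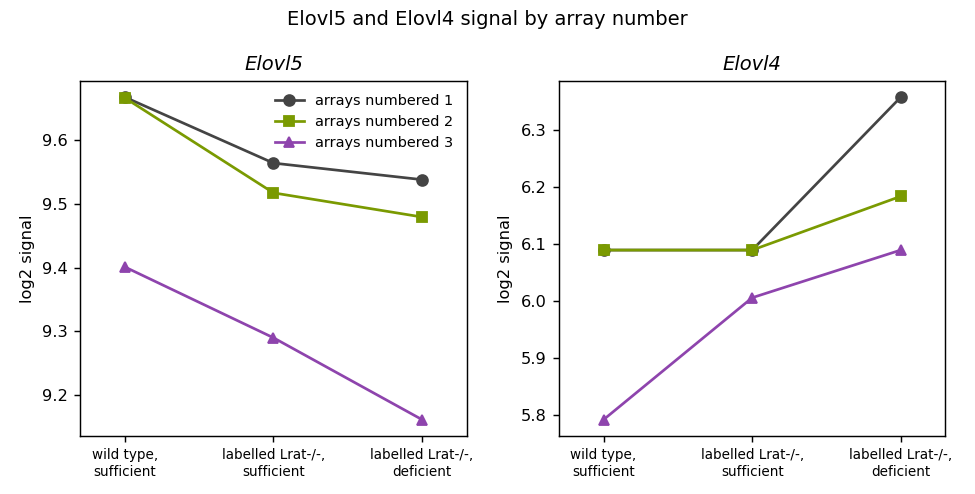
Log2 signal (vertical axis, not starting at 0) of Elovl5 and Elovl4 in the 3 groups, with a line joining the arrays that carry the same number in the labels. Elovl5 is ordered wild type, sufficient, deficient from high to low within each number, while the arrays numbered 3 run lower; the Elovl4 symbols of arrays 1 and 2 coincide at 6.09 in the first 2 groups.

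Of the 6 elongases other than Elovl7, 0 passed an adjusted p of 0.05 in limma between the sufficient groups, where 0.0363% of all genes passed (0.0227% lower and 0.0136% higher), and 0 passed between the deficient group and wild type, where 0.0680% did (0.0272% lower and 0.0408% higher). At an unadjusted p under 0.05, 0 of the 6 passed in either comparison, against 5.72% and 6.09% of all genes. None of the 6 had groups that did not overlap, against 7.70% and 8.15% of all genes. With the array number as a block, 2 of the 6 fell under the unadjusted threshold between the deficient group and wild type, Elovl4 and Elovl5, as did 1884 of all 22061 genes, and neither passed after adjustment. Elovl2 and Elovl3 were under background, Elovl4 close to it and Elovl6 weak, so these counts speak mainly for Elovl1 and Elovl5. The intervals above show which differences the 3 arrays a group leave possible.

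Diet within Lrat-/- was not used to choose any member. Of the 7 elongases, 0 passed the adjusted threshold, as for all genes (0% called; 2 genes were called with array weights, neither an elongase), and 0 had an unadjusted p under 0.05, against 1.31% of all genes. The diet groups overlapped for all 7, while 5.22% of all genes had diet groups that did not overlap. Elovl2, Elovl3 and Elovl7 were under the control mean in both diet groups, Elovl4 was close to it and Elovl6 weak. These counts too speak mainly for Elovl1 and Elovl5. Elovl7 differed by -0.04 on the log2 scale between the deficient and the sufficient group (SE 0.13, 95% interval -0.34 to 0.26), with both groups under the control mean, so any further fall could not be seen. The widest difference was for Elovl4, itself close to background, at 0.15 (95% interval -0.08 to 0.38). Those of Elovl1, Elovl5 and Elovl6 were -0.07 (-0.34 to 0.20), -0.06 (-0.35 to 0.22) and -0.04 (-0.27 to 0.18), and each of these had an adjusted p of 1.

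**Figure D3:**
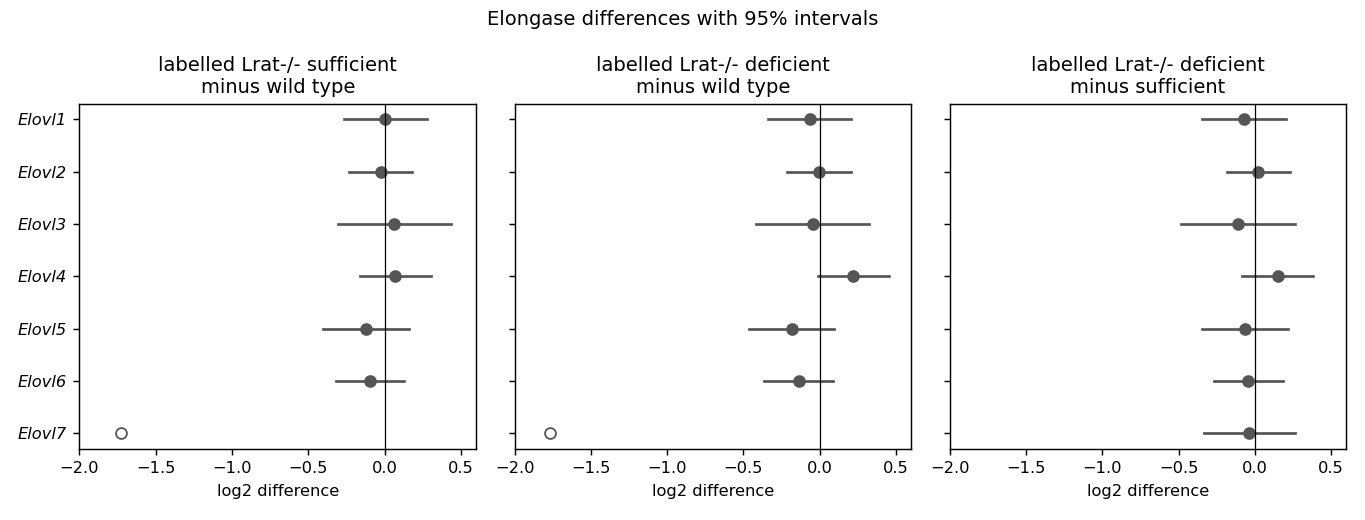
Log2 difference (horizontal axis) of each elongase in the 3 comparisons, with 95% intervals from limma as bars. Open circles mark Elovl7 against wild type, -1.73 and -1.77, given without a test because the gene was picked for that difference; every interval drawn includes 0.

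The enzymes that complete the elongation cycle with the elongases showed no common direction. Of 7 measured, 0 passed the threshold between the sufficient groups, with a median log2 difference of 0.04 against 0.00 for all genes. Tecrl, an endoplasmic reticulum protein related to the last reductase of the cycle and expressed in heart muscle, had log2 signals of 12.24, 12.08 and 12.13 in wild type, 11.70, 11.82 and 11.81 with sufficient feeding and 11.75, 11.81 and 11.86 on the deficient diet. The groups labelled Lrat-/- did not overlap with wild type (log2 difference -0.37, SE 0.07, limma adjusted p = 0.254). Tecr, the reductase itself, had 0.04, the ketoacyl reductase Hsd17b12 -0.09, and the dehydratases Hacd1, Hacd2 and Hacd3 0.22, 0.13 and 0.06. Hacd1 and Hacd2 lay above wild type without overlap on the sufficient diet, and Hacd2 also on the deficient diet (0.22, limma adjusted p = 0.760). Hacd4, of the same dehydratase family, had -0.37 with overlapping arrays (limma adjusted p = 0.912). On the deficient diet it had -0.34 without overlap (limma adjusted p = 0.910). None of these passed. Between the sufficient groups, 2 of the 7 were higher and 1 lower without overlap, where 3.67% and 4.03% of all genes were. For the deficient group it was 1 and 2, where 3.28% and 4.88% of all genes were.

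Desaturases introduce double bonds into the chains that elongases extend. Of 10 measured, 7 had lower means under the Lrat-/- label with sufficient feeding and 0 passed the threshold, with a median log2 difference of -0.05. Scd1, the main stearoyl-CoA desaturase, had log2 signals of 9.71, 9.11 and 9.29 in wild type, 8.86, 8.66 and 8.84 with sufficient feeding and 8.77, 8.75 and 8.73 on the deficient diet. Every array labelled Lrat-/- lay below every wild-type array, with a log2 difference of -0.58 on the sufficient diet (SE 0.14, limma adjusted p = 0.400) and -0.62 on the deficient diet (limma adjusted p = 0.314). Fads2, the first desaturase of the polyunsaturated pathway that Elovl5 shares, had -0.29 and -0.33 (limma adjusted p = 0.656 and 0.479). Fads1, the next desaturase of that pathway, had -0.33 between the sufficient groups, where the arrays did not overlap (limma adjusted p = 0.667). Between the deficient group and wild type it had -0.27 with overlapping arrays (limma adjusted p = 0.759). Fads3, a related desaturase, was the one whose sufficient arrays lay above wild type without overlap, at 0.16 (limma adjusted p = 0.922).

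Genes that supply malonyl-CoA and palmitate, or drive their transcription, gave 0 calls among 10 and 16 measured. Fasn, fatty acid synthase, had a log2 difference of -0.32 between the sufficient groups and -0.10 between the deficient group and wild type. Srebf1, which drives lipogenic genes including Scd1 and Elovl6, had -0.28 in both (limma adjusted p = 0.694 and 0.642). Mlxipl, the carbohydrate-responsive factor ChREBP, had -0.34 and -0.21 (limma adjusted p = 0.320 and 0.706). Ppara and Ppargc1a, regulators of fatty acid oxidation, had 0.26 each between the sufficient groups, whose arrays did not overlap for either gene, and neither passed (limma adjusted p = 0.716 and 0.758).

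Of the lists that use long chains, the ceramide synthase and sphingolipid genes gave 0 calls among 14 measured, the acyl-CoA synthetases and transporters 0 among 18, and the peroxisomal genes for very long chains 0 among 12. Cers4, a ceramide synthase, had log2 signals of 9.88, 9.92 and 10.03 in wild type, 10.24, 10.27 and 10.29 with sufficient feeding and 10.46, 10.53 and 10.21 with deficient feeding. Each of the 6 arrays labelled Lrat-/- was above all wild-type arrays (log2 difference 0.32 and 0.46, limma adjusted p = 0.579 and 0.247), and with array weights the deficient difference was 0.53 and passed (adjusted p = 0.0391). Ugcg, which makes glucosylceramide, had -0.31 and -0.25. Of the other genes named by the rule, Cd36 had 0.23, Acsbg2 -0.19, the peroxisomal transporter Abcd3 0.20, Scp2 -0.23 and malic enzyme Me1 -0.17 between the sufficient groups.

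Over all 87 pathway genes other than the elongases, limma called 0 in each of the 3 comparisons. It called 0.0363% of all genes between the sufficient groups, 0.0680% between the deficient group and wild type and 0% for diet. At shares this low, 0 calls do not set the list apart from all genes. At an unadjusted p under 0.05 there were 12 of the 87 between the sufficient groups, 14 between the deficient group and wild type and 0 for diet. Of all genes, 5.72%, 6.09% and 1.31% had such a p. The arrays did not overlap for 11 genes that were lower and 7 that were higher between the sufficient groups, 12.6% and 8.05% of the list, where 4.03% and 3.67% of all genes did so. The deficient group, compared with the same wild-type arrays, gave 11 and 7, where 4.88% and 3.28% of all genes did so. Diet gave 0 lower and 3 higher, Fasn, Mlxipl and Scp2, with 3.26% and 1.96% of all genes.

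**Figure D4:**
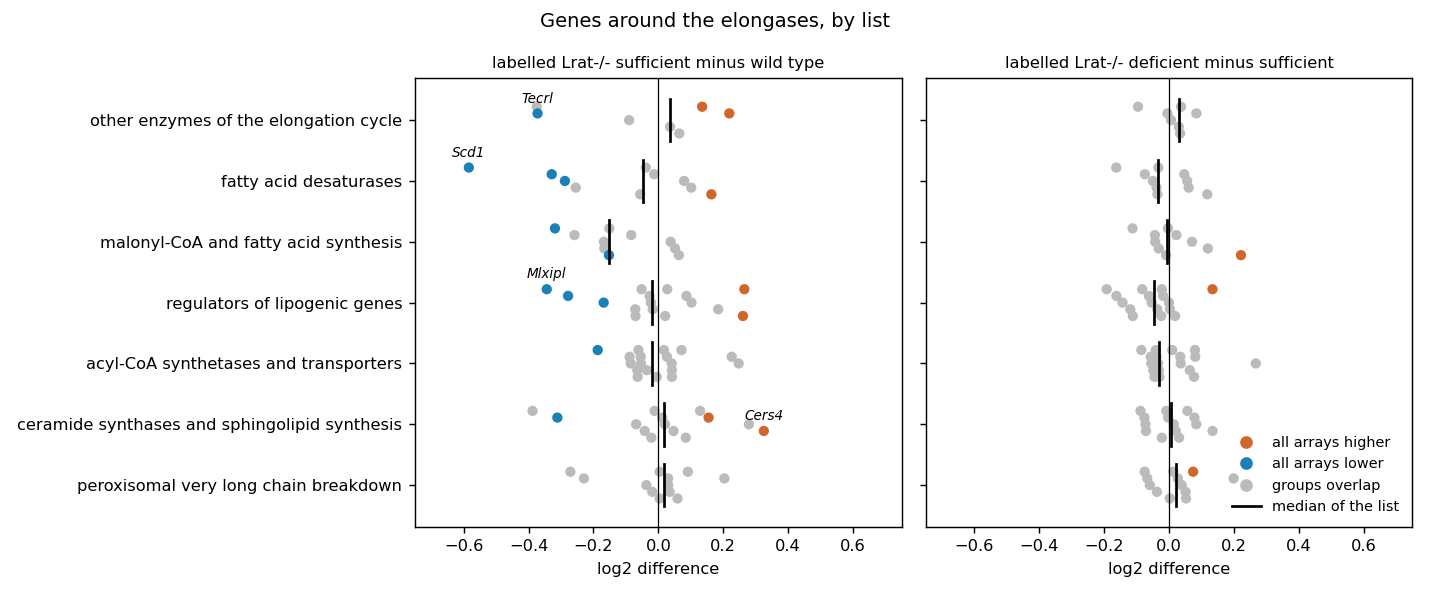
Log2 difference (horizontal axis) of each measured gene of 7 lists around the elongases, for the sufficient groups, Lrat-/- label against wild type (left) and for deficient against sufficient diet within Lrat-/- (right); colour marks genes whose groups did not overlap and a black line the median of each list. Scd1 lies farthest left at -0.58 and Cers4 farthest right at 0.32, and no gene passed the adjusted threshold.

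The 10 measured genes nearest to Elovl7 on chromosome 13 gave no calls. In gene order these were Apoo-ps, Zswim6, Smim15, Ndufaf2 and Ercc8 on one side, and Depdc1b, Pde4d, Rab3c, Gapt and Plk2 on the other. Their log2 differences lay between -0.09 and 0.14 with sufficient feeding and between -0.27 and 0.24 on the deficient diet. limma called 0 of the 10 in any comparison, with unadjusted p no lower than 0.0748. Of all genes, 0.0363% were called between the sufficient groups, 0.0680% between the deficient group and wild type and 0% for diet. With so few calls, 0 of 10 does not set these neighbours apart from other genes. Ercc8, a DNA repair factor next to Elovl7, had -0.02, and Depdc1b on the other flank -0.02. Pde4d, a cyclic AMP phosphodiesterase, had 0.14 with no overlap between the sufficient groups, where 7.70% of all genes had none. Elovl7 lies on another chromosome than Lrat, which is on chromosome 3.

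Genes were ranked by how closely their log2 signal followed Elovl7 over the 9 arrays, among 18076 genes above the control mean in at least 1 group. Pearson's r, given as a description over arrays that fall into separate groups, was highest for Plekha7 (0.989), Hal (0.983), Gdpd3 (0.971), Etv5 (0.963) and Tpsab1 (0.961). Plekha7 is an adherens junction protein, Hal the first enzyme of histidine breakdown, Gdpd3 a lysophospholipid phosphodiesterase, Etv5 an ETS transcription factor and Tpsab1 a mast cell tryptase. Etv5 log2 signal was 7.97, 8.15 and 8.43 in wild type, 7.47 to 7.55 with sufficient feeding and 7.57 to 7.63 on the deficient diet. It shared with Elovl7 the order of the wild-type arrays, array 1 lowest and array 3 highest, and so did Tpsab1. The ranking by r used these same arrays, so a shared order is partly built in. Tpsab1 was above the control mean in only 1 of the 3 arrays of each group labelled Lrat-/-. Plekha7 and Hal did not share the order, with wild-type array 2 the highest at 8.20 and 8.96. Nor did Gdpd3, with wild-type array 3 the lowest at 10.30.

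The lowest r belonged to Adam22 (-0.976), Usp49 (-0.961), Pkig (-0.959), Crhr2 (-0.957) and Lrat (-0.953). Adam22, a catalytically inactive ADAM protein, ran from 7.40 to 7.48 in wild type and from 7.68 to 7.83 over the 6 arrays labelled Lrat-/-, without overlap. Crhr2, the urocortin receptor of the heart, ran from 9.69 to 9.90 in wild type and from 10.14 to 10.22 in those 6 arrays. The 10 genes lay on chromosomes 2, 3, 5, 6, 7, 10, 16 and 17, with Gdpd3 and Plekha7 on chromosome 7 and none on chromosome 13. In all, 37 genes had r over 0.9 and 35 under -0.9. Among the elongases, r with Elovl7 was 0.53 for Elovl6, 0.40 for Elovl5, 0.20 for Elovl1 and -0.55 for Elovl4.

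**Figure D5:**
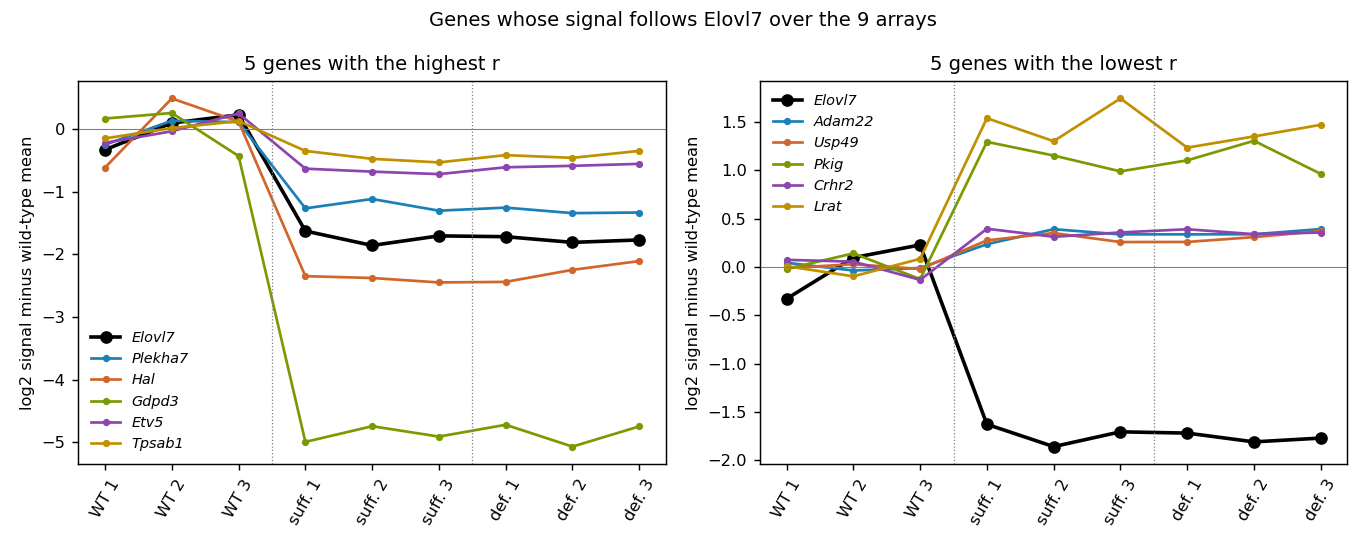
Log2 signal minus the wild-type mean (vertical axis) in each array (horizontal axis) for Elovl7 in black and the 5 genes with the highest (left) and lowest (right) Pearson r with it. All 10 genes have the 6 arrays labelled Lrat-/- apart from the 3 wild-type arrays.

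In bulk tissue, fewer cells of a type and less RNA per cell cannot be told apart. The means of the mesothelial and fibroblast lists lay below wild type without overlap in both groups labelled Lrat-/-, by less than Elovl7. With sufficient and deficient feeding, 9 and 10 of 10 mesothelial markers were lower than in wild type. For fibroblast markers it was 10 and 9 of 10, and for macrophage markers 10 and 10. Between the diets, 10 of 10 mesothelial markers were lower on the deficient diet (median log2 difference -0.18), where Elovl7 differed by -0.04. The mean log2 signal of 10 mesothelial markers was 7.05 to 7.64 in wild type, 6.95 to 6.99 with sufficient feeding and 6.59 to 6.91 on the deficient diet, and all 10 were measured and 9 were above background in every array. The mean of 10 fibroblast markers was 9.17 to 9.35, 8.98 to 9.05 and 8.90 to 9.10. Wild-type array 1 had the highest mesothelial mean, 7.64, and the lowest wild-type Elovl7, 6.92. The 10 endothelial markers had 10.37 to 10.39 in wild type and 10.25 to 10.29 on the sufficient diet, and overlapped with wild type on the deficient diet at 10.22 to 10.41. The 10 macrophage markers had 8.49 to 8.88 in wild type and 8.33 to 8.54 on the sufficient diet, and lay below wild type on the deficient diet at 8.42 to 8.46. The 9 lymphocyte markers measured, close to background, had 5.76 to 5.86, 5.71 to 5.77 and 5.70 to 5.71, with Cd3g, Ms4a1 and Klrb1c under the control mean in every array. The mean of 10 smooth muscle and pericyte markers was 9.43 to 9.56 in wild type and 9.58 to 9.73 with sufficient feeding, where 7 of the 10 were higher and 3 lower. On the deficient diet it overlapped with wild type at 9.51 to 9.59, with 5 higher and 5 lower. The part of these cells in the Elovl7 difference was not tested.

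The epithelial, adipocyte, brown fat, atrial, erythrocyte and platelet lists overlapped between wild type and both groups labelled Lrat-/-. The 10 epithelial markers had means of 6.32 to 6.41 in wild type, 6.28 to 6.38 with sufficient feeding and 6.29 to 6.32 on the deficient diet. The 10 adipocyte markers had 7.09 to 7.18, 7.08 to 7.13 and 7.04 to 7.20, with Adipoq and Adrb3 under the control mean in every array. The erythrocyte markers had 8.24 to 8.62, 8.56 to 8.77 and 8.62 to 9.03. On the deficient diet the epithelial, erythrocyte and platelet means overlapped with wild type only barely, so overlap does not mean that these lists stayed level. Against wild type, 6 epithelial markers were lower and 4 higher with sufficient feeding, and 9 lower and 1 higher on the deficient diet. Of the 7 erythrocyte markers measured, 7 were higher with sufficient feeding, and 6 higher and 1 lower on the deficient diet. limma called 0 genes of any marker list in any comparison. Over all genes the share called was 0.0363% between the sufficient groups, 0.0680% between the deficient group and wild type and 0% for diet.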

How the data were processed

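The deposited series table holds log2 signals that the authors made with RMA; RMA, mm8 and R 3.1.2 are named in the submitters' processing notes. Of its 35556 probe sets, 6546 were array controls, 5222 of them negative. Gene symbols came from a deposited annotation table and were updated through RefSeq names (GRCm38.p6): 22111 probe sets matched by accession, 1818 by symbol, 625 by synonym, and 911 stayed as annotated. Another 3543 probe sets had no symbol and 2 had more than 1, and these were left unnamed. For each of 22061 genes the probe set with the highest mean was kept. That table's 9 signal columns match no sample label and were not used. Per the file headers, the authors' deposited ratio, its p-value and a false discovery rate came from a variance model of group and scan date.

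Groups were compared with limma 3.58.1 in R 4.3.3 over all 9 arrays and all genes, with Benjamini-Hochberg adjustment (6 residual and 3.34 prior degrees of freedom), after testing on simulated data. The sufficient groups were compared with each other, as were the deficient group with wild type and the 2 diets. Calls are at an adjusted p under 0.05. Figures used matplotlib 3.10.9 under Python 3.11.15. The background level is the mean log2 signal of an array's negative controls.

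The members, gene lists and naming rule were chosen with earlier results of these data known. The rule named all elongases, called pathway genes and the 2 per list with the lowest unadjusted p between the sufficient groups, the 5 genes most and the 5 least like Elovl7 by Pearson r (leaving out predicted genes, RIKEN clones and olfactory receptors, 2002 by name), and 5 neighbours on each side; other genes were named after their values were seen. Same-numbered arrays deviated together, with r from 0.138 to 0.391 across genes in all 9 pairs (-0.365 to 0.223 for the 18 pairs with different numbers), so the number was tried as a block. No label says what a number shares.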

Additional observations from a re-analysis of the deposited data

How the results depend on the processing

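Elovl7 was picked for its log2 difference from wild type, so the range of that difference is a description only. It ran from -1.89 to -1.61 on the sufficient and from -1.93 to -1.65 on the deficient diet, both ranges set by leaving out 1 array. Alternatives that change only the error estimate or the genes fitted, or leave out an array of a group not compared, cannot change it. With the median of the negative controls as background, the bounds were -1.64 and -1.61 in place of -1.58 and -1.56; against the 95th percentile of the controls, between 8.09 and 8.54, no array of any group was above background, so no bound could be given. The number called stayed at 0 under all alternatives for the 6 elongases other than Elovl7 in both comparisons with wild type, and for all 7 in the diet comparison. The replicate number as a block was among these alternatives, giving 0, 0 and 0, and left the differences themselves unchanged. The pathway genes also stayed at 0 calls, except that array weights called 1, Cers4, between the deficient group and wild type; the cause was not tested.

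Small uncalled differences changed sign. Without the arrays numbered 3 these were, between the sufficient groups, Elovl1 (-0.07) and Elovl2 (0.05); for diet, Elovl1 (0.00), Elovl2 (-0.01), Elovl3 (0.05) and Elovl6 (0.11); and between the deficient group and wild type, Elovl2 (0.04) and Elovl3 (0.13). Array weights turned Elovl1 (-0.08) between the sufficient groups, Elovl1 (0.03), Elovl3 (0.03), Elovl6 (0.10) and Elovl7 (0.04) for diet, and Elovl3 (0.05) between the deficient group and wild type, where shifting the arrays to 1 median turned Elovl2 (0.02). With 1 array left out, signs turned for Elovl1 (-0.09 to 0.14), Elovl2 (-0.10 to 0.07), Elovl3 (-0.14 to 0.17) and Elovl4 (-0.03 to 0.12) between the sufficient groups; for Elovl2 (-0.02 to 0.05), Elovl5 (-0.15 to 0.05), Elovl6 (-0.09 to 0.05) and Elovl7 (-0.10 to 0.02) for diet; and for Elovl1 (-0.16 to 0.07), Elovl2 (-0.08 to 0.09) and Elovl3 (-0.25 to 0.06) between the deficient group and wild type. The cause of these turns was not tested. Elovl2 and Elovl3 were not above the mean background and had no value when only genes above it were fitted. Over all genes, the number called between the sufficient groups was 8, against 27 without wild-type array 1, 17 without wild-type array 3, 2 without all arrays numbered 3 and 7 to 11 without another single array. Between the deficient group and wild type it was 15, against 32 without wild-type array 3, 3 without all arrays numbered 3, 32 with array weights and 7 to 22 without another single array. Diet had 0, and 2 with array weights.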

Other observations

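Exactly repeated values were common in the deposited table. Elovl4 had the same log2 signal in 5 arrays, Elovl2 in 4, Elovl3 in 3 and Elovl1 in 2, while Elovl5, Elovl6 and Elovl7 had 9 distinct values. Of all genes, 57.0% shared a value between at least 2 arrays and 5.9% between at least 5. The within-group SD was 0.13 for Elovl4 and 0.11 for Elovl2, close to the median of 0.131 over all genes, and 0.18 for Elovl7, which exceeded 74.4% of genes.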
